A study of Mus musculus with 24 samples.

Results

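Galectins are small lectins that bind β-galactosides on glycoproteins and glycolipids, inside and outside the cell. The 7 genes described here are Lgals1, Lgals2, Lgals3, Lgals4, Lgals8 and Lgals9, which encode galectins, and Lgals3bp, which encodes a secreted glycoprotein bound by galectin-3. They were chosen by their log2 signals over the 8 groups of tissue, genotype and diet, so their levels and differences are given as descriptions with standard errors and without p-values. They are 7 of 18193 genes with a probe set that the platform annotation gives to 1 gene symbol alone, and they hold 10 of 34945 such probe sets. A probe set is a group of short oligonucleotides on the array that together report 1 transcript. The lists of marker and pathway genes tested below were also chosen with earlier results of these data known. Their p-values are therefore no independent support.

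The study compared mice lacking GPR120, the receptor for long-chain fatty acids encoded by Ffar4, with wild-type mice, on a mixed 129/Sv and C57BL/6 background. Each genotype was given a normal diet (ND) or a high-fat diet (HFD), and 3 mice per genotype and diet each gave 1 array of epididymal adipose tissue (fat) and 1 of liver, 24 arrays from 12 mice. The 8 groups were therefore knockout (KO) on HFD, wild-type (WT) on HFD, KO on ND and WT on ND in each tissue, with 3 arrays in each. The sources used here give neither the age of the mice nor the length of feeding, nor the design of the knockout allele. The question the design puts is how loss of the receptor changes the tissues on each diet.

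Galectin-1, from Lgals1, forms dimers with 1 carbohydrate-binding domain per chain and is abundant in mesenchymal cells. Galectin-3, from Lgals3, is built as a chimera of 1 such domain and a tail through which it oligomerises, and it is a known product of macrophages. Galectin-4, galectin-8 and galectin-9 carry a pair of different domains on 1 chain. Galectin-4 is best known from the gut epithelium, galectin-8 from the recognition of damaged vesicles, and galectin-9 as a ligand of TIM-3 that is induced by interferon. In adipose tissue galectin-12, from Lgals12, is the family member known from adipocytes.

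Signals are fluorescence intensities on a linear scale. Array medians ran from 13.4 to 25.7, and the lowest Spearman correlation between arrays of 1 group was 0.889. Ffar4 was called lower in KO than WT fat on HFD, at 23.1 to 30.5 against 97.3 to 171 (log2 difference -2.27 ± 0.21 SE, limma adjusted p = 0.000205), and the ND difference missed the threshold (-0.90 ± 0.21, adjusted p = 0.111). In liver the mean log2 signal of its probe set over all arrays missed the filter on low values, so it was not tested, and the order went against the labels: arrays labelled KO gave 13.5 to 18.3 against 0.55 to 1.63 in arrays labelled WT on HFD, and 21.5 to 36.8 against 1.07 to 17.3 on ND. The labels do not say which part of Ffar4 was removed, so whether this probe set can check the genotype is unknown. KO and WT liver below mean the arrays labelled so. All 6 ND fat arrays held transcripts of the epididymis, the sperm duct beside this fat pad: the summed signal of 10 epididymal markers was 39298 to 63486, against 30.6 to 2744 on HFD, with the highest HFD value in KO mouse 427. Sperm and testis markers summed to 21205 in WT ND mouse 686 and 14396 in WT ND mouse 690, against at most 1454 in the other fat arrays, and skeletal muscle markers to 4797 in WT HFD mouse 547, against at most 983. In fat, diet and epididymal RNA therefore cannot be told apart. Galectin differences between WT ND fat and 1 other group are also given without mice 686 and 690, and differences on HFD fat without mice 427 and 547 where they moved by more than the spread between replicates. Without mice 686 and 690, WT ND fat is 1 array, that of mouse 687. Such values are differences only, because 1 array shows no spread within its group. Adipocyte markers summed to 13877 or more on every fat array, and hepatocyte markers to 73622 or more on every liver array.

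The tissues differed in which galectins they showed. Within a mouse, Lgals1 and Lgals3 were higher in fat than in liver in 12 of 12 mice, with median log2 differences of 4.02 and 3.67. Lgals8 and Lgals9 were lower in fat in 12 of 12 mice, with medians of -1.57 and -3.57. Lgals4 was higher in fat in 3 of 12 mice, Lgals3bp in 7 and Lgals2 in 6. Levels are compared here only for the same probe set across arrays, because different probe sets have no common scale.

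**Figure D1:**
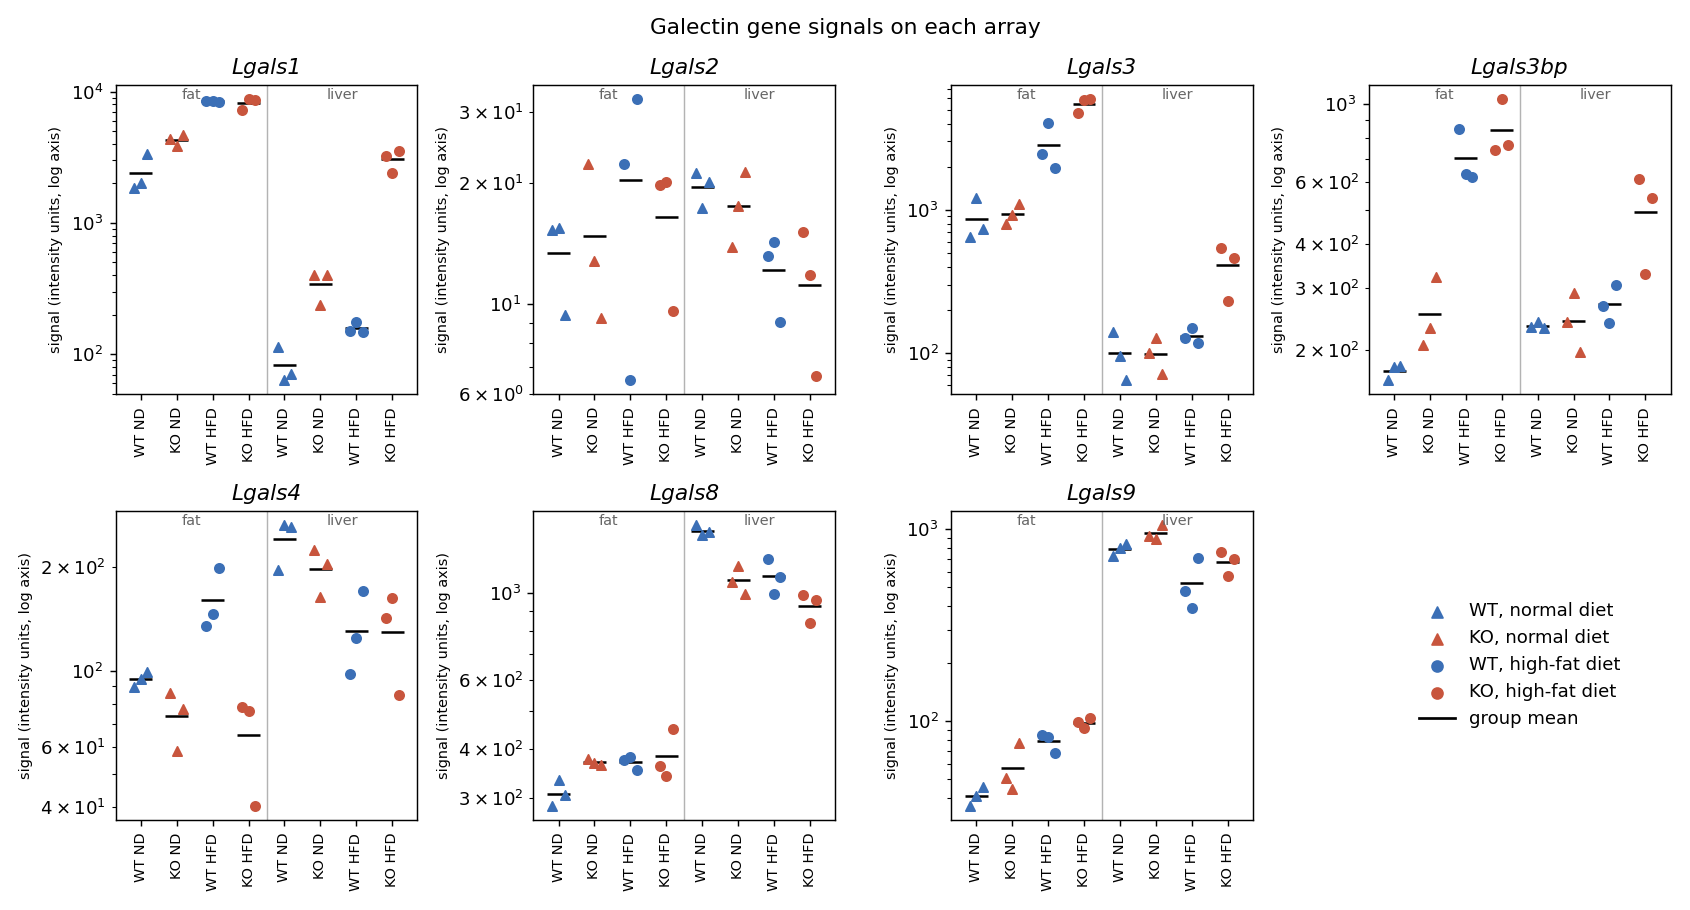
Signal of the 7 galectin genes on each array (intensity units, log axis), 3 arrays per group in fat (left of each panel) and liver (right); blue is WT, red KO, triangles ND and circles HFD, and the line is the group mean. The Lgals1 panel shows KO HFD arrays at 2419 to 3521 above all other liver arrays, which lie at 63.4 to 401.

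Lgals1, which codes for a galectin that links glycoproteins at cell surfaces, was higher in livers labelled KO than in livers labelled WT on both diets, labels that the order of the Ffar4 signals goes against in this tissue. On HFD the 3 KO livers gave 3225, 2419 and 3521, and the 3 WT livers gave 150, 175 and 149. On ND the KO livers gave 401, 236 and 398 and the WT livers 113, 63.4 and 70.2. KO and WT did not overlap on either diet, and no KO HFD liver came near any other liver group. Group means were 3055 ± 570 in KO HFD, 158 ± 14.5 in WT HFD, 345 ± 94.3 in KO ND and 82.2 ± 27.0 in WT ND (SD, n = 3 each). The KO mean was 19.4 times the WT mean on HFD and 4.19 times on ND. In log2 terms the KO minus WT difference was 4.26 ± 0.24 (SE) on HFD, the rank 6 value from the top of 11029 liver genes, and 2.07 ± 0.24 on ND, rank 25. HFD minus ND was 3.17 ± 0.24 in KO and 0.98 ± 0.24 in WT liver, so the interaction estimate was 2.19 ± 0.34. In bulk tissue, more cells of a type and more RNA per cell cannot be told apart.

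In fat the order of the Lgals1 groups was different. On HFD the WT arrays gave 8428, 8507 and 8280 and the KO arrays 7217, 8783 and 8697, which overlapped (KO minus WT log2 -0.036 ± 0.19). On ND the KO arrays, at 4332, 3820 and 4639, all exceeded the WT arrays, at 1835, 2012 and 3340 (0.88 ± 0.19, or 1.08 without mice 686 and 690). HFD minus ND was 1.86 ± 0.19 in WT (2.06 without mice 686 and 690) and 0.95 ± 0.19 in KO fat. The genotype difference on HFD in fat minus that in liver was -4.30 ± 0.32. The KO HFD livers, at a mean of 3055, overlapped the range of WT ND fat, 1835 to 3340. The other Lgals1 probe set, 1419573_a_at, gave liver KO minus WT differences of 4.43 ± 0.18 on HFD and 1.94 ± 0.18 on ND, and correlated with the first at r = 0.999 over the 24 arrays.

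Summed markers of several cell types differed between genotypes in liver, hepatocyte markers on both diets and the other lists given here on 1 diet only. Macrophage markers (18 genes) summed to 7644 to 8904 in KO HFD, 5450 to 6757 in WT HFD, 4048 to 4737 in KO ND and 4177 to 6055 in WT ND liver. Fibroblast and mesenchymal markers (11 genes) summed to 3159 to 4649, 2199 to 2702, 2864 to 3152 and 2802 to 3969 in the same groups. Adipocyte markers (10 genes) summed to 1199 to 1427, 546 to 668, 681 to 1094 and 768 to 1338, and 3 of 5 tested were called higher in KO on HFD and 0 lower. On ND these 3 sums overlapped between genotypes. Of 18 macrophage markers tested, 4 were called higher in KO and 1 lower on HFD (median log2 difference 0.66). On ND 0 of them were called in either direction (median -0.13). The summed lipid-associated macrophage markers (11 genes) lay wholly higher in KO on ND, at 3718 to 4820 against 2970 to 3097. Of 10 tested there, 2 were called higher, Cd36 and Lipa, and 0 lower, beside 4.78% of all liver genes called. On HFD the sums overlapped, with 3 called higher and 0 lower. Hepatocyte markers (9 genes) lay wholly lower in KO on both diets, at 73622 to 82432 against 91017 to 103130 on HFD and 87174 to 99209 against 109280 to 115972 on ND, with 4 and 1 of 9 called lower and 0 higher. The part of these cell types in the Lgals1 differences was not tested. Of 8 fibroblast and mesenchymal markers tested in liver, 3 were called higher in KO on HFD and 0 lower, the collagen genes Col3a1 (2.51 ± 0.28, adjusted p = 0.000253) and Col1a2 (2.15 ± 0.25, adjusted p = 0.000283) and the matrix gene Dpt (1.5 ± 0.27, adjusted p = 0.00606). Their median was 0.94, against -0.025 over all liver genes, and 6.74% of liver genes were called at adjusted p under 0.05 in this comparison. On ND 0 of the 8 were called by limma, with 4 at an unadjusted p under 0.05.

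The genes whose fat profile was most like that of Lgals1 over 12 arrays were Ccdc80 (Pearson r = 0.990), Cd36 (0.989), a fatty acid transporter, and Mmd (0.987). Cd36 was also called higher in KO than WT liver on both diets, by 2.66 ± 0.20 on HFD (adjusted p = 9.08e-06) and 2.01 ± 0.20 on ND (adjusted p = 0.000203). In liver the closest profiles were Nudt9 (r = 0.968), Pnldc1 (0.968), Cyp2b9 (0.968), Col14a1 (0.962) and Ubd (0.958), a list added after the Lgals1 values were seen. Cyp2b9, a cytochrome P450 gene, gave 535 to 798 in KO HFD livers and 12.8 to 17.7 in WT HFD livers. With the group means removed, r was 0.14 for Nudt9, 0.0021 for Pnldc1, 0.56 for Cyp2b9, 0.71 for Col14a1 and 0.069 for Ubd. These correlations share arrays and groups and carry no p-value.

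Lgals3 was highest in KO fat on HFD. The KO HFD fat arrays gave 4721, 5860 and 5937 and the WT HFD arrays 2451, 4067 and 1955. All KO values exceeded all WT values, and KO minus WT was 1.03 ± 0.28 on the log2 scale. Without KO mouse 427 and WT mouse 547 it was 1.43. On ND the genotypes overlapped, with KO at 792 to 1098 and WT at 643 to 1208 (0.16 ± 0.28, or -0.38 without WT mice 686 and 690). HFD minus ND was 2.56 ± 0.28 in KO fat, rank 177 from the top of 11589 fat genes, and 1.70 ± 0.28 in WT fat, or 1.16 without mice 686 and 690.

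In liver Lgals3 was higher in mice labelled KO than in those labelled WT on HFD, while on ND the genotypes overlapped. KO HFD livers gave 539, 231 and 458 against 128, 149 and 118 in WT HFD livers, a difference of 1.55 ± 0.32 with no overlap. On ND both genotypes lay between 64.9 and 141 (0.017 ± 0.32). HFD minus ND was 1.99 ± 0.32 in KO liver, rank 71, and 0.45 ± 0.32 in WT liver, where the groups overlapped. The interaction estimates were 1.54 ± 0.46 in liver and 0.87 ± 0.40 in fat.

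Macrophage markers moved with Lgals3. In fat they summed to 26408 to 41769 in KO HFD, 11313 to 18234 in WT HFD, 5947 to 7570 in KO ND and 4620 to 4906 in WT ND, the order of the Lgals3 group means. On ND the macrophage sum did not overlap between genotypes, while Lgals3 did (792 to 1098 in KO, 643 to 1208 in WT). The ND order of Lgals3 also reversed without mice 686 and 690, as given above, where mouse 687 alone stood for WT ND. The correlation of Lgals3 with this sum on the log2 scale was 0.96 over 12 fat arrays and 0.88 over 12 liver arrays, against 0.85 and 0.69 for Lgals1 and 0.92 and 0.76 for Lgals3bp. For Lgals9 it was 0.91 in fat and -0.55 in liver. These values share arrays and groups, and Lgals3 was not alone in following the macrophage sum. The WT HFD fat array with the highest Lgals3, mouse 547, also had the highest macrophage sum of its group, whereas in KO HFD liver the array with the lowest Lgals3, mouse 428, did not have the lowest. The part of macrophage number in the Lgals3 differences was not tested. The fat profiles most like Lgals3 were the chemokine gene Ccl9 (r = 0.989), Ago2 (0.987) and the cytokine receptor gene Csf2rb2 (0.986).

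**Figure D2:**
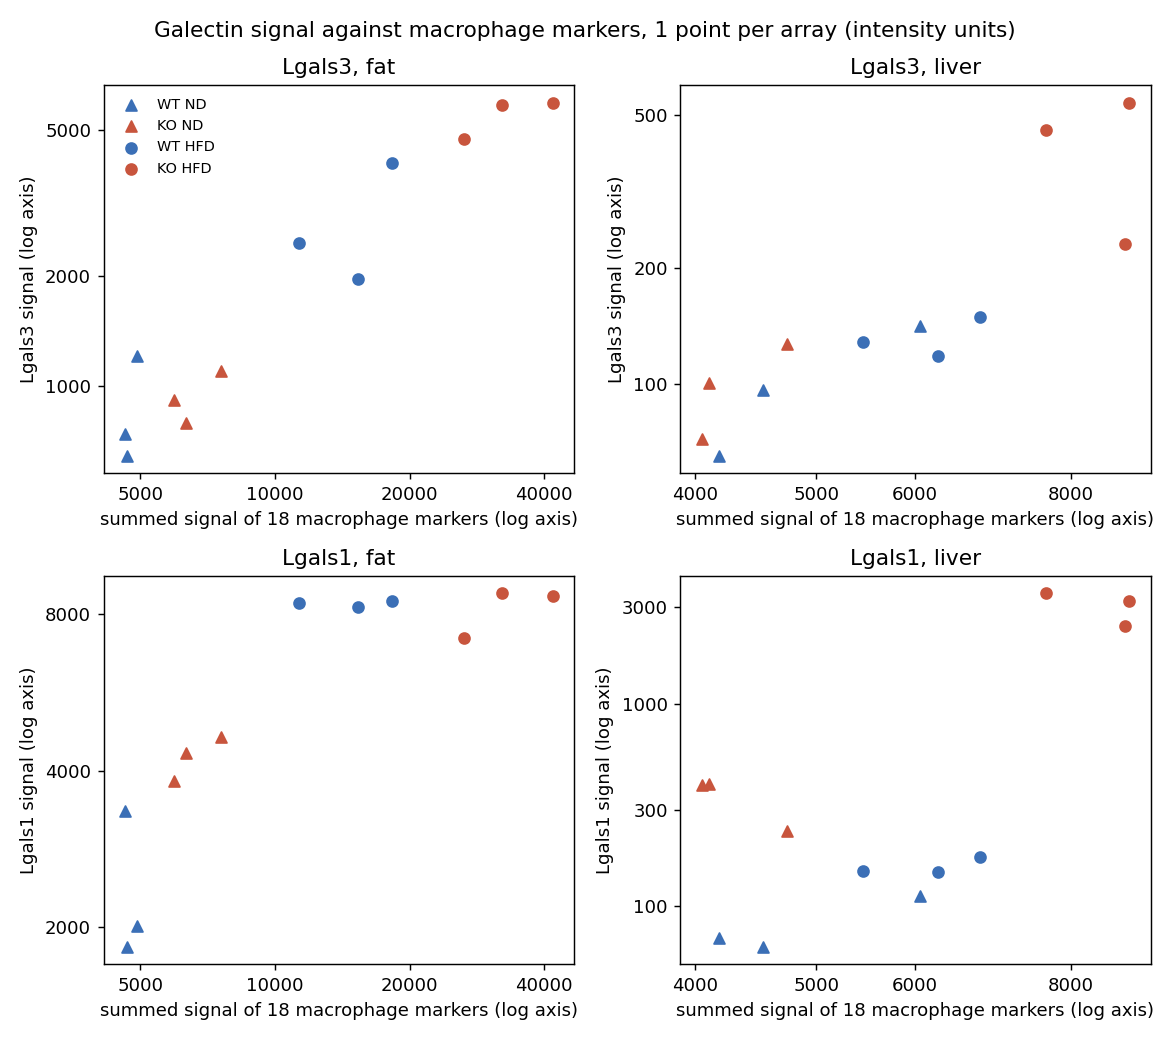
Signal of Lgals3 (top) and Lgals1 (bottom) against the summed signal of 18 macrophage markers in fat (left) and liver (right), all in intensity units on log axes, with 1 point per array (blue WT, red KO, triangles ND, circles HFD). With the sum, Lgals3 correlates at r = 0.96 in fat and 0.88 in liver, and Lgals1 at 0.85 and 0.69. KO ND livers lie at Lgals1 signals of 236 to 401 with macrophage sums of 4048 to 4737. These sums overlap the 4177 to 6055 of the WT ND livers. The part of macrophage number in either gene was not tested.

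Lgals3bp, whose protein binds galectin-3 and which is a known interferon-induced gene, followed diet in fat. WT fat gave 849, 634 and 622 on HFD against 164, 179 and 180 on ND, a log2 difference of 2.0 ± 0.19, or 1.96 without mice 686 and 690. KO fat gave 740, 1035 and 767 against 207, 232 and 323, a difference of 1.75 ± 0.19. The HFD groups overlapped between genotypes (0.27 ± 0.19), and on ND all KO values exceeded all WT values (0.52 ± 0.19, or 0.48 without those mice). In liver Lgals3bp gave 614, 329 and 542 in KO HFD and 266, 239 and 305 in WT HFD (0.83 ± 0.20, no overlap), while the ND groups overlapped (0.027 ± 0.20). HFD minus ND was 1.0 ± 0.20 in KO liver and 0.20 ± 0.20 in WT liver, where the groups overlapped. The closest fat profiles were Mdfic (r = 0.990), the complement gene Cfb (0.989) and Dock8 (0.988).

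Lgals9 moved opposite ways with diet in the tissues. Fat gave 84.3, 83.3 and 68.6 in WT HFD and 36.2, 40.8 and 45.5 in WT ND, a difference of 0.95 ± 0.20 with no overlap, or 0.94 without mice 686 and 690. Liver gave 478, 387 and 705 in WT HFD and 728, 801 and 834 in WT ND, a difference of -0.63 ± 0.18 with no overlap. KO mice showed the same directions, 0.82 ± 0.20 in fat and -0.51 ± 0.18 in liver, again without overlap. Between genotypes, KO exceeded WT without overlap in HFD fat (99.7, 92.1 and 103 in KO, 0.33 ± 0.20) and in ND liver (924, 888 and 1054 in KO, 0.28 ± 0.18). KO and WT overlapped in ND fat (0.45 ± 0.20) and in HFD liver (0.40 ± 0.18). Without mice 686 and 690 the ND fat difference was also 0.45, with all KO values, 44.1 to 76.8, above the 40.8 of mouse 687. H2-Aa, an MHC class II gene, had the fat profile most like Lgals9 (r = 0.971), before Pam (0.967) and Pqlc3 (0.967).

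Because Lgals9 and Lgals3bp are known interferon-induced genes, the 250 bases upstream of their annotated start sites were searched on both strands for GAAANNGAA, the core of the interferon-stimulated response element, TTCNNNGAA, the gamma-activated site bound by STAT proteins, and TGANTCA, the AP-1 site. AANNGAAA, the core bound by interferon regulatory factors, was added after the sequences were read; it can overlap GAAANNGAA. The sequences are from RefSeq on GRCm38.p6, which listed 6 of the 7 genes and not Lgals1, and both genes lie on the minus strand, Lgals9 at chr11:78984925-78985174 and Lgals3bp at chr11:118401960-118402209. Lgals3, at chr14:47373610-47373859 on the plus strand, is shown as the macrophage-associated member without a match. Capitals mark the matches, and each line runs 5′ to 3′ towards the start site.
Lgals9: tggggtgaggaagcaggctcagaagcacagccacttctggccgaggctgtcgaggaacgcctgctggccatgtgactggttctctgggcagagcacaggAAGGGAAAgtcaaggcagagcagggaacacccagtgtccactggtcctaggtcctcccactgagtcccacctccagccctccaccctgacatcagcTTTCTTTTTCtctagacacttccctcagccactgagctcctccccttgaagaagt
Lgals3bp: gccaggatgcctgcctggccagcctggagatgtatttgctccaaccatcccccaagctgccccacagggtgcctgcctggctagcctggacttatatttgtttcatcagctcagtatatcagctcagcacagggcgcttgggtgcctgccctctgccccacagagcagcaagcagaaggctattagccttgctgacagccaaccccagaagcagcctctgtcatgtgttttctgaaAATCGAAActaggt
Lgals3: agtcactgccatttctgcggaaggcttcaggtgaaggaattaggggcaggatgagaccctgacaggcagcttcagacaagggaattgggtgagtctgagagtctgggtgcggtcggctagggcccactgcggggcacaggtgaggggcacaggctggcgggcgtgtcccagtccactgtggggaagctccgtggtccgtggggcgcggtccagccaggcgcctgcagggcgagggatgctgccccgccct

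The Lgals9 window held GAAANNGAA on the reverse strand as TTCTTTTTC, with its first base at -54 from the start site, and AANNGAAA at -151 as AAGGGAAA and on the reverse strand at -55 as TTTCTTTT, which overlaps the first match. The Lgals3bp window held AANNGAAA at -14 as AATCGAAA. No other listed member's window held any of the 4 motifs. Of 32851 such windows in the table, 7.13% held GAAANNGAA, 7.02% TTCNNNGAA, 6.75% TGANTCA and 21.3% AANNGAAA. A match describes the letters and not a bound site.

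Interferon-induced genes, a list of 12 measured genes, were called higher on HFD in KO liver for 8 of 11 tested and lower for 0 (median 1.84, against 0.024 over all liver genes, of which 16.8% were called), the direction of Lgals3bp there. Examples are the guanylate-binding protein gene Gbp2 (2.16 ± 0.30, adjusted p = 0.000632) and the antiviral genes Ifit3 (1.66 ± 0.24, adjusted p = 0.000754) and Ifit1 (2.09 ± 0.30, adjusted p = 0.000783). In WT liver 4 of 11 were called higher and 0 lower (median 0.71, against 0.0020 over all genes, of which 12.8% were called). Lgals9 was lower on HFD in both livers, opposite to these medians. In fat 9 of 12 in WT and 8 of 12 in KO were called higher on HFD and 0 lower, where 55.3% and 48.6% of all fat genes were called. Between genotypes on HFD the liver count was 2 of 11 higher, the chemokine gene Cxcl10 (1.74 ± 0.34, adjusted p = 0.00996) and Gbp2 (1.5 ± 0.30, adjusted p = 0.0106), and in fat 1 was called higher and 1 lower of 12. Both liver calls were lost without KO HFD mouse 427 (adjusted p = 0.0553 and 0.0611). Of all genes 6.74% in liver and 22.2% in fat were called between genotypes on HFD.

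Lgals4 was lower in KO than WT fat on HFD. KO HFD fat gave 78.3, 76.3 and 40.3 and WT HFD fat 135, 147 and 200, a log2 difference of -1.34 ± 0.26 with no overlap, rank 261 from the lowest of 11589. On ND the KO values, 86.1, 58.3 and 77.0, also lay below the WT values, 89.8, 94.3 and 98.7 (-0.37 ± 0.26, or -0.37 without mice 686 and 690). Liver KO and WT overlapped on HFD (-0.025 ± 0.25) and on ND (-0.29 ± 0.25). With diet, Lgals4 was higher on HFD in WT fat (0.75 ± 0.26, no overlap, or 0.74 without mice 686 and 690), and the KO fat groups overlapped (-0.23 ± 0.26). In liver all HFD values lay below all ND values of the same genotype, by -0.91 ± 0.25 in WT and -0.65 ± 0.25 in KO. The closest fat profiles were Slc22a23 (r = 0.940), Nat8l (0.938), which makes N-acetylaspartate, and Hint3 (0.930).

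Lgals8 was lower in livers labelled KO than in those labelled WT on both diets, and its probe sets disagreed in fat. Probe set 1422662_at gave 286 to 332 in WT ND fat and 340 to 450 in the other 9 fat arrays. In liver it gave 1495, 1406 and 1434 in WT ND, 1066, 1173 and 994 in KO ND, 1222, 995 and 1102 in WT HFD and 986, 838 and 960 in KO HFD. KO was below WT without overlap on ND (-0.43 ± 0.10) and on HFD (-0.25 ± 0.10), and HFD below ND in WT (-0.39 ± 0.10) and KO (-0.22 ± 0.10). In fat KO ND exceeded WT ND (0.27 ± 0.11) and WT HFD exceeded WT ND (0.27 ± 0.11), each without overlap; without mice 686 and 690 both values were 0.15.

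The other Lgals8 probe set, 1422661_at, agreed in direction in liver and disagreed in fat. By this probe set KO and WT livers overlapped on HFD (-0.30 ± 0.13) and on ND (-0.33 ± 0.13). Over the 12 liver arrays the pair correlated at r = 0.87, and over the 12 fat arrays at -0.80. In WT ND fat 1422661_at gave 330 in mouse 686, 71.7 in mouse 687 and 116 in mouse 690, against 40.6 to 61.9 in the other 9 fat arrays. By this probe set KO ND fat was below WT ND fat (-1.26) and WT HFD below WT ND (-1.55), both opposite in sign to 1422662_at. Mice 686 and 690 are those with the highest sperm and testis marker sums, and the part of those transcripts was not tested. The fat profiles most like 1422662_at were Sgms1 (r = 0.935), Sting1 (0.924) and Hltf (0.916).

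**Figure D3:**
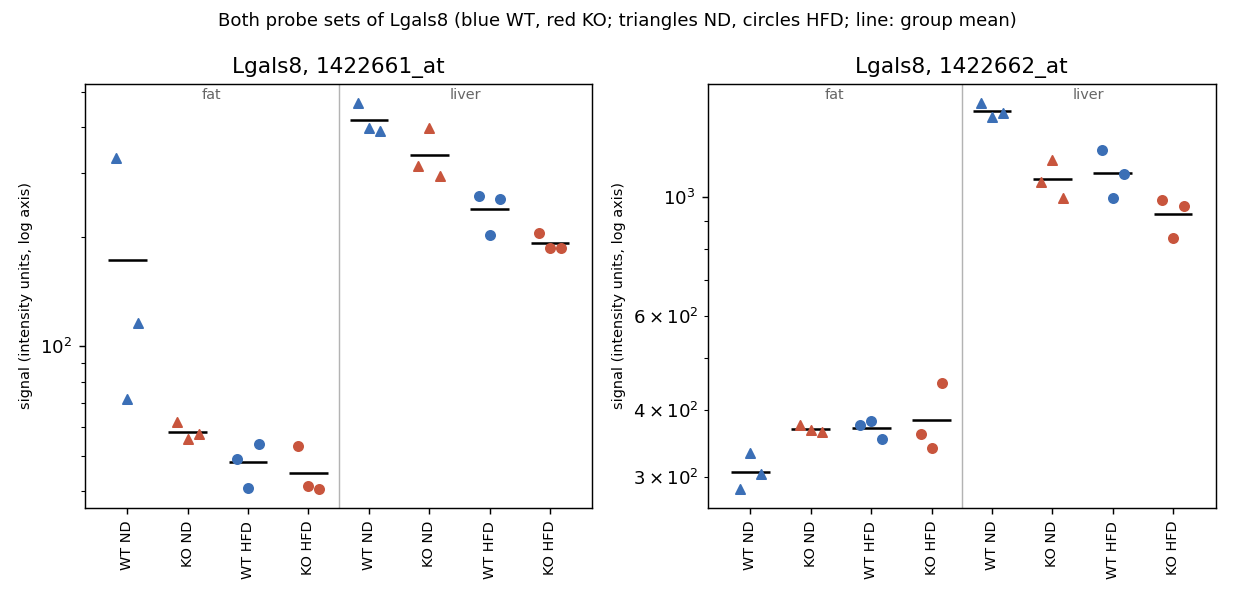
Signal of both Lgals8 probe sets on each array (intensity units, log axis), 3 arrays per group, with the group mean as a line. The probe sets fall together in liver (r = 0.87) and run opposite ways in fat (r = -0.80), where 1422661_at reached 330 in WT ND mouse 686.

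Lgals2, a small galectin known from the gut, gave 6.48 to 32.3 in fat and 6.63 to 21.3 in liver with probe set 1417079_s_at. It did not pass the filter in fat and passed in liver, and its probe sets correlated at r = 0.091 over 24 arrays. Liver values were 13.2, 14.2 and 9.06 in WT HFD and 21.2, 17.4 and 20.1 in WT ND (-0.71 ± 0.41, no overlap), and the KO groups overlapped between diets. At signals this low the probe sets give no common picture.

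Across the 7 genes, 6 passed the filter in fat (a mean log2 signal at or above that of the median probe set, a signal of 19.3) and all 7 in liver (a signal of 12.95). The rule used these contrasts, so the counts are a description and nothing is read from them. Between genotypes on HFD fat, KO lay wholly above WT for 2 (Lgals3, Lgals9), wholly below for 1 (Lgals4) and overlapped for 3, while 18.3% of all fat genes lay wholly above and 19.7% wholly below. On ND fat the counts were 3 above (Lgals1, Lgals3bp, Lgals8), 1 below (Lgals4) and 2 overlapping, beside 16.1% and 7.13%. In liver on HFD 3 lay above (Lgals1, Lgals3, Lgals3bp), 1 below (Lgals8) and 3 overlapped, beside 13.8% and 15.6%. On ND liver 2 lay above (Lgals1, Lgals9), 1 below (Lgals8) and 4 overlapped, beside 11% and 14.7%.

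**Figure D4:**
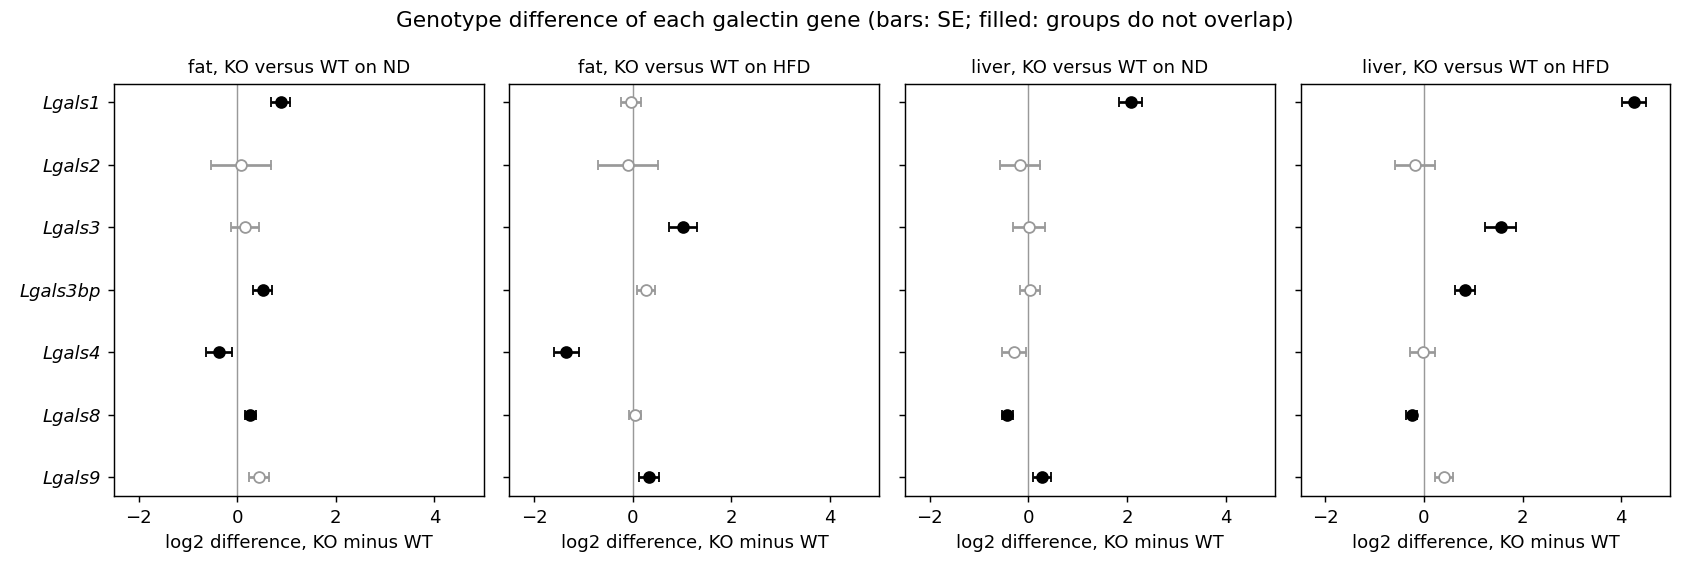
Log2 difference KO minus WT for each galectin gene in fat and liver on ND and HFD, with SE bars; filled points mark groups of 3 arrays that do not overlap. Lgals1 reaches 4.26 in HFD liver and -0.036 in HFD fat, and Lgals4 lies at -1.34 in HFD fat.

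For diet, all 6 genes kept in fat lay higher on HFD than on ND in WT mice and 4 in KO mice (Lgals1, Lgals3, Lgals3bp, Lgals9), with 0 lower in either. Of all fat genes 30.5% lay wholly higher and 30.7% wholly lower in WT, and 28.2% and 33.9% in KO. In WT liver 1 of 7 lay higher (Lgals1) and 4 lower (Lgals2, Lgals4, Lgals8, Lgals9), beside 15% and 14%, and in KO liver 3 lay higher (Lgals1, Lgals3, Lgals3bp) and 3 lower (Lgals4, Lgals8, Lgals9), beside 20.7% and 18.1%. The fat HFD comparisons set arrays nearly free of epididymal transcripts against arrays rich in them, as given above. The KO and WT diet differences have no arrays in common, whereas the diet and genotype differences share groups.

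**Figure D5:**
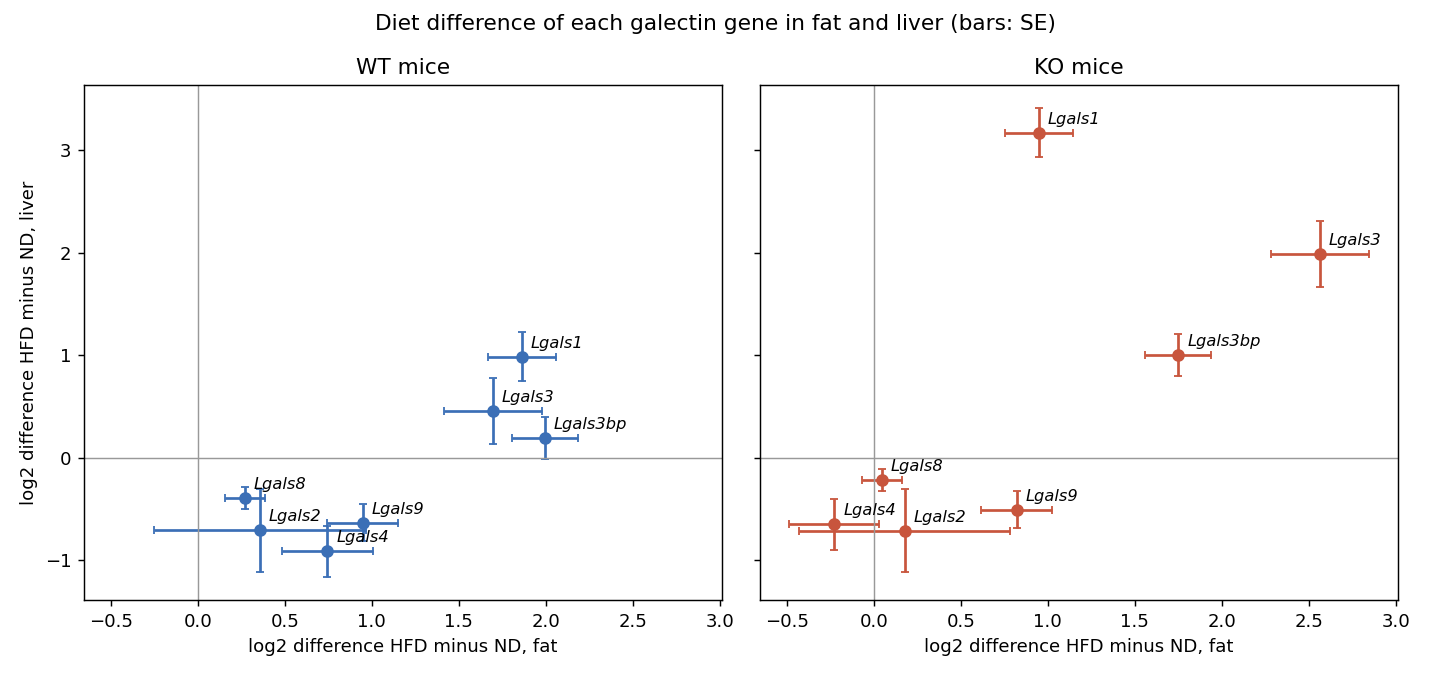
Log2 difference HFD minus ND of each galectin gene in fat (horizontal) and liver (vertical), WT at left and KO at right, with SE bars. Lgals1, Lgals3 and Lgals3bp lie above 0 in both tissues and Lgals9 lies at 0.95 in WT fat and -0.63 in WT liver.

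The family members outside the 7 were tested, as a list also chosen with earlier results of these data known. Lgals12, the adipocyte galectin, gave 131 to 362 in KO HFD, 501 to 747 in WT HFD, 77.0 to 193 in KO ND and 41.1 to 71.5 in WT ND fat. It was called lower in KO than WT on HFD (-1.64 ± 0.40, limma adjusted p = 0.0136) and higher on HFD than ND in WT (3.52 ± 0.40, adjusted p = 3.43e-05). In KO the diet difference was 0.73 ± 0.40 (adjusted p = 0.15), and the interaction was called (-2.78 ± 0.56, adjusted p = 0.0136), where 10.9% of fat genes were. Over the alternatives the KO against WT HFD adjusted p ran from 0.00419 to 0.0582, with the call lost without KO HFD mouse 429 and without WT HFD mouse 560. In liver Lgals12 lay below the filter. Its second probe set gave -1.20 for KO against WT on HFD. Among 10 adipocyte markers tested in fat 5 were called lower in KO on HFD and 0 higher, where 22.2% of fat genes were called in either direction, and their part in the Lgals12 difference was not tested.

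Lgalsl, which encodes a galectin-related protein, was called higher on HFD than ND in WT fat (1.0 ± 0.27, adjusted p = 0.00814). Without mice 686 and 690 that call was lost, in a fit with mouse 687 alone as WT ND. The lowest limma adjusted p over the alternatives was 0.00285. The fat minus liver genotype difference on HFD was also called (-1.26 ± 0.38, adjusted p = 0.0329, with 12.8% of 10019 genes called), lost in 7 of 19 alternatives. Lgals7, known from stratified epithelia, was called lower on HFD in WT fat (-1.30 ± 0.36, adjusted p = 0.00915), lost under quantile normalization (adjusted p over the alternatives from 0.00646 to 0.0736). Its signals there were 10.6 to 15.4 on HFD and 20.9 to 40.1 on ND. Grifin, a lens galectin, passed the filter in liver only and was called in no liver comparison (lowest adjusted p = 0.353). On ND, 0.25% of fat genes were called between genotypes by limma, and 0 of 3 family members were, with 1 at an unadjusted p under 0.05 (lowest adjusted p = 0.238 for Lgals12).

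Galectin ligands and receptors, a list of 25 genes of which 20 were tested in fat, moved both ways in KO against WT fat on HFD: 4 were called higher and 2 lower (median 0.18, against -0.030 over all fat genes). Of all fat genes 22.2% were called in this comparison, and 6 of 20 is near that share. The higher ones include Cd44 (2.10 ± 0.30, adjusted p = 0.00105), the hyaluronan receptor, and Ptprc (1.77 ± 0.25, adjusted p = 0.00106), the leukocyte CD45. The lower ones were Kdr (-1.88 ± 0.23, adjusted p = 0.000655), the VEGF receptor of endothelial cells, and Insr (-1.26 ± 0.20, adjusted p = 0.00171), the insulin receptor, whose call was lost with the mean of probe sets (adjusted p = 0.384). Without mice 427 and 547 the counts were 7 and 2, with no share of all fat genes given for that fit. Macrophage markers were called higher for 15 of 18 and lower for 1 (16 and 0 without these mice), and endothelial markers lower for 10 of 10 and higher for 0, with and without them. The part of either cell type in the ligand differences was not tested.

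In liver on HFD 1 of 15 ligands and receptors was called higher in KO and 0 lower, the leukocyte gene Ptprc (0.86 ± 0.23, adjusted p = 0.0392), lost in 6 of 11 alternatives, among them leaving out KO mouse 427 or 428 or WT mouse 546 or 560 (adjusted p over the alternatives from 0.0295 to 0.655). Of all liver genes 6.74% were called between genotypes on HFD. On ND limma called 0 of 15 in liver, where 4.78% of all genes were called, and 0 of 20 in fat, where 0.25% were. At an unadjusted limma p under 0.05 there were 2 and 6. With diet, 10 of 20 were called higher and 3 lower in WT fat, and 9 and 3 in KO fat, near the 55.3% and 48.6% of all fat genes called. In WT the semaphorin and VEGF co-receptor gene Nrp1 was higher (2.11 ± 0.18, adjusted p = 6.69e-06), and in KO Slc3a2, the CD98 heavy chain, was lower (-1.34 ± 0.16, adjusted p = 6.78e-05). In liver the counts were 2 higher and 1 lower of 15 in WT and 3 and 1 in KO, with the integrin gene Itgb1 called lower in both (-0.67 ± 0.15, adjusted p = 0.0111; -0.92 ± 0.15, adjusted p = 0.00141). Both Itgb1 calls were lost with the mean of probe sets (adjusted p = 0.412 and 0.818). Of all liver genes, 12.8% in WT and 16.8% in KO were called with diet. For the liver interaction limma called 0 of 15, with 2 at an unadjusted p under 0.05, where 1.02% of all genes were called.

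Genes that build the N-glycan branches and poly-N-acetyllactosamine to which galectins bind were called higher for 3 of 16 and lower for 1 in KO against WT fat on HFD (median 0.0080), a share near the 22.2% of all fat genes called. They were Mgat5 (1.11 ± 0.28, adjusted p = 0.0171), which adds the beta branch, Mgat2 (0.59 ± 0.16, adjusted p = 0.0204), Gcnt1 (1.42 ± 0.39, adjusted p = 0.0245), the core 2 O-glycan enzyme, and Gcnt2 (-0.90 ± 0.29, adjusted p = 0.0477). Each of these calls was lost in some of the 12 alternatives: Mgat5 in 2, with WT mouse 546 left out among them (adjusted p up to 0.0598), Mgat2 and Gcnt1 in 5 each (up to 0.262 and 0.0789) and Gcnt2 in 8 (up to 0.177). For Mgat2, Gcnt1 and Gcnt2 these included leaving out KO mouse 429 or WT mouse 560, for Mgat2 and Gcnt2 also WT mouse 546, and for Gcnt1 and Gcnt2 also WT mouse 547. In liver on HFD 1 of 13 was called higher, Man2a2 (0.64 ± 0.16, adjusted p = 0.0349), lost in 8 of 11 alternatives, among them without each KO mouse and without WT mouse 547 or 560 (adjusted p up to 0.992), and 0 lower. Of all liver genes 6.74% were called in that comparison. With diet in fat 7 were called higher and 4 lower of 16 in WT, and 5 and 2 in KO, beside 55.3% and 48.6% of all fat genes.

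Sialic acid capping can block galectin binding, and St6gal1, the enzyme that adds sialic acid in the linkage known to hinder galectin-1, was called lower on HFD in fat of both genotypes (-3.14 ± 0.20, adjusted p = 9.53e-07 in WT; -2.93 ± 0.20, adjusted p = 2.59e-06 in KO). Of the 10 genes of that list 5 were called lower and 1 higher in WT fat, and 5 and 0 in KO fat, shares near the 55.3% and 48.6% of all fat genes called. Without mice 686 and 690 the WT counts were lower, in a fit with mouse 687 alone as WT ND. Epididymal markers were called lower for 10 of 10 in the same comparisons, and their part in the St6gal1 difference was not tested. Between genotypes on HFD fat 2 were called higher, Cmas (0.75 ± 0.16, adjusted p = 0.00694) and Nans (0.60 ± 0.19, adjusted p = 0.0478, lost in 7 of 12 alternatives, with KO mouse 427 or 429 or WT mouse 546 or 560 left out among them, adjusted p up to 0.176), and 2 lower, St3gal6 (-1.18 ± 0.22, adjusted p = 0.00369, or 0.19 with the mean of probe sets) and Gne (-1.04 ± 0.19, adjusted p = 0.00388), which starts sialic acid synthesis. In liver limma called 0 of the 10 between genotypes on either diet, with 3 on each at an unadjusted p under 0.05. Of all liver genes 6.74% were called on HFD and 4.78% on ND. With diet 1 was called lower in WT and 2 in KO, beside 12.8% and 16.8% of all liver genes. St3gal4 was lower in both (-0.68 ± 0.13, limma adjusted p = 0.00606 in WT, and -0.77 ± 0.13, adjusted p = 0.00217 in KO).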

How the data were processed

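Expression was measured on Affymetrix mouse arrays, 24 arrays from 12 mice in 8 groups of 3. The deposited values are linear intensity signals made by the authors with MAS5, per the submitters' processing notes; the version is stated nowhere in the sources used. Trimmed means of the arrays lie between 98.9 and 99.5, so signals look scaled to a common mean; this is read from the values. After 64 control probe sets were removed, a gene was represented by its probe set of highest mean signal; 932 probe sets with several symbols and 9160 without one were left out. Signals were floored at each tissue's 10th percentile, log2-transformed and filtered at the median probe set's mean log2 (19.3 in fat, 12.95 in liver, in signal units), leaving 11589 and 11029 genes.

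Each tissue was fitted with limma 3.58.1 in R 4.3.3 (4 group means, variance trend, Benjamini-Hochberg adjustment over all genes, threshold 0.05; genotype effects on HFD were compared between tissues in a joint fit of 8 groups), after a test on simulated data. The members and lists were chosen with earlier results of these data known. Named were the members, the other galectin genes, Ffar4, up to 4 called genes of smallest p per list and comparison, and the 3 genes of highest correlation with each member in fat. The same mice gave both tissues; the correlation of a mouse's fat and liver deviations from their group means ran from 0.033 to 0.13, over 0.1 in 4 of 12 mice. Alternatives were quantile normalization, an offset of 16 before log2, no filter, the mean of probe sets, the groups alone, mouse as a block and leaving out arrays. The number of arrays limits the precision.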

Additional observations from a re-analysis of the deposited data

Results flagged for a closer look

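Several galectin genes moved opposite ways in fat and liver, with every array of 1 group on one side in fat and on the other side in liver; these differences were not tested. HFD minus ND in WT mice differed between fat and liver by 1.66 log2 units for Lgals4, by 1.58 for Lgals9 and by 0.66 for Lgals8, and in KO mice by 1.33 for Lgals9. KO minus WT on ND differed between fat and liver by 0.69 for Lgals8. Both Lgals8 values rest on the probe set 1422662_at, since the other probe set has the opposite sign in fat.

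Among tested genes, the Lgals12 diet difference in fat was smaller in KO than in WT mice (interaction -2.78, limma adjusted p = 0.0136, over the alternatives 0.00452 to 0.0479). The genotype difference of Lgalsl on HFD differed between fat and liver (-1.26, limma adjusted p = 0.0329, over the alternatives 0.0142 to 0.108).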

How the results depend on the processing

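For the galectin genes, 290 of 310 recomputed differences moved by less than the spread between replicates, 16 moved further and 4 reversed; leaving out 1 array, 310 of 312 stayed and 2 moved. The 4 reversals are Lgals8 in fat: KO against WT on ND gave -0.50 with the mean of probe sets and -1.26 with the other probe set, and HFD against ND in WT gave -0.64 and -1.55. Quantile normalization moved the median of all genes for HFD against ND in WT fat from -0.025 to 0.0997 and Lgals1 in KO against WT liver on HFD to 3.90.

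Counts of called genes changed most under these settings. KO against WT on ND fat (29 genes) gave 58 with quantile normalization, 18 with the mean of probe sets, 19 without the filter and 2 without mice 686 and 690. The fat interaction (1258) gave 805 with the mean of probe sets and 376 without those mice. The mean of probe sets also gave 479 for KO against WT HFD liver (743), 303 for ND liver (527), 805 for HFD against ND in WT liver (1417), 55 for the liver interaction (113) and 837 for the tissue difference (1286). With the arrays of the groups alone, ND liver KO against WT gave 332 and HFD against ND in WT liver 632. With mouse as a block, the paired fit of the tissue difference gave 1448. The cause was not tested.

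Leaving out 1 array gave 1574 (without KO mouse 429) to 2675 genes for KO against WT HFD fat (2576), 7 (without KO mouse 718) to 398 (without WT mouse 687) for ND fat, 5663 to 6078 for HFD against ND in WT fat, 4468 to 5542 in KO fat, 636 (without KO mouse 718) to 1485 for the fat interaction, 281 (without KO mouse 427) to 708 for KO against WT HFD liver, 196 (without KO mouse 718 or 720) to 574 for ND liver, 684 (without WT mouse 547) to 1399 for HFD against ND in WT liver, 1147 (without KO mouse 429) to 1324 in KO liver (1858), 40 (without KO mouse 720) to 132 for the liver interaction and 777 (without the fat array of KO mouse 429) to 1425 for the tissue difference. Counts also moved by over 1.5 times without WT mouse 560 for HFD fat (1629), KO mice 719 and 720 and WT mouse 686 for ND fat (18, 9 and 11), mice 429, 546, 560, 719 and 720 for the fat interaction (677 to 781), mice 429, 546 and 547 for HFD liver (395 to 440), mice 687 and 719 for ND liver (197 and 320), mice 546 and 687 for diet in WT liver (755 and 851), mice 427, 718 and 720 for diet in KO liver (1162 to 1196) and mice 427, 429, 546, 547, 687 and 718 for the liver interaction (50 to 65).

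Small differences of 3 tested genes that passed no threshold changed sign. Leaving out 1 array gave -0.29 to 0.25 for Lgals7 and -0.11 to 0.34 for Lgalsl with diet in KO fat, and without mice 427 and 547 the values were 0.030 and -0.023, and Lgals7 with quantile normalization was 0.22. It gave -0.30 to 0.13 for Lgalsl and -0.41 to 0.19 for Grifin with diet in KO liver, -0.80 to 0.077 for Grifin with diet in WT liver and -0.20 to 0.68 for its interaction. 2 called differences also changed sign with the mean of probe sets: Lipe with diet in WT fat from 1.80 to -0.66, and the tissue difference of Insr from -0.84 to 0.21.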
